A study of Mus musculus with 16 samples.

Results

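H3K4me3, trimethylation of histone H3 at lysine 4, was profiled in mouse hippocampus at regions that lie far inside genes. A deep intragenic region is defined here as an H3K4me3 region that overlaps a protein-coding gene and lies more than 10 kb from both ends of every gene in the GRCm38.p6 table. The rule uses position alone, and 5784 of 35996 distinct regions met it (16.1%). They fell in 2610 protein-coding hosts or overlapping sets of hosts, and 40 regions overlapped 2 or more such genes.

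The study used adult male mice 2 to 4 months old, and each library came from hippocampi pooled from 2 mice. Mice labelled mutant (KO Kdm5c) and Wild-type littermates, here KO and WT, had a mixed F1 background of C57 and 129 and were sampled under standard conditions or after 1 h of exploring an unfamiliar box, here novelty. Mice labelled mutant (ifKO Kdm5c) and their controls, here ifKO and ifWT, were C57BL/6J and were sampled under standard conditions. The labels do not say how the KO and ifKO alleles were made, or in which cells the ifKO allele acts. The 6 H3K4me3 groups had 2 libraries each, with 18181192 to 30435735 counts over the regions. Kdm5C and H3K4me1 were measured in C57BL/6J hippocampus in 1 KO and 1 WT library each. The title of 1 ifWT library reads H3K3me3, whereas its antibody label reads H3K4me3. Hippocampal tissue holds many cell types, so fewer cells of a type and less of the mark per cell cannot be told apart in these libraries.

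H3K4me3 is laid down mainly where transcription starts, most densely at CpG-rich promoters, and is weak along the body of a gene. A region with H3K4me3 far inside a gene can be an alternative promoter, the start of an unlisted transcript, or an enhancer with some trimethylation. Kdm5C is a demethylase encoded on the X chromosome that removes di- and trimethylation from H3K4, and in people its loss causes an X-linked intellectual disability.

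Of the 5784 regions, 504 (8.71%) held a transcription start listed in the RefSeq start table used here. In 503 of them it was a start of the host gene itself. That table lacked some hosts, so starts of those hosts could not be counted. The start windows printed next run from 250 bases before to 50 bases after such a start, 5′ to 3′ on the transcribed strand, from RefSeq on GRCm38.p6. CG dinucleotides are in capitals, since their number differed between the windows of regions that were higher and lower in KO. The genes were chosen after their values were seen. Among windows not printed, those of higher regions in Tox2 and Atp2b2 hold 8 CpG each, and that of a lower region in Kcnip4 holds 7. The first 4 windows lie in regions that were higher in KO, the next pair are neighbouring starts of Sptbn4 whose regions changed in opposite directions, and the last 3 lie in a region that fell, a region with much Kdm5C signal, and a strong region that passed no test.
Gng7: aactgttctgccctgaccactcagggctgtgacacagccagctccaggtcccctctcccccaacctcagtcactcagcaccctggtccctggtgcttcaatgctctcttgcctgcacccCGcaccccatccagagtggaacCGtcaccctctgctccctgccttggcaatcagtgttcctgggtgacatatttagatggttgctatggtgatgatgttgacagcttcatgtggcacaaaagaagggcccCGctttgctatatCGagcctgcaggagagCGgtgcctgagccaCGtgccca
Celf6: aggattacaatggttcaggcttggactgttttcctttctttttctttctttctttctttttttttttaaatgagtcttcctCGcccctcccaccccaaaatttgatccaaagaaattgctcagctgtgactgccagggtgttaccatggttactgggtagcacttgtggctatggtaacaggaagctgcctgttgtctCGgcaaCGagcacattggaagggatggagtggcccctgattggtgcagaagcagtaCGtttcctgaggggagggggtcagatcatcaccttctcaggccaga
Kcnab2: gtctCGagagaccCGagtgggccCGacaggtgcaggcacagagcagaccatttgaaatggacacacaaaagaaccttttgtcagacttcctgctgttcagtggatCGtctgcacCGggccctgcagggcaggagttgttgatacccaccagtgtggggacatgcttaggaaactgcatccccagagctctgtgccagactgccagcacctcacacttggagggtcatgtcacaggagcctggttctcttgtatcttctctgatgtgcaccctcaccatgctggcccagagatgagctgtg
Cyth1: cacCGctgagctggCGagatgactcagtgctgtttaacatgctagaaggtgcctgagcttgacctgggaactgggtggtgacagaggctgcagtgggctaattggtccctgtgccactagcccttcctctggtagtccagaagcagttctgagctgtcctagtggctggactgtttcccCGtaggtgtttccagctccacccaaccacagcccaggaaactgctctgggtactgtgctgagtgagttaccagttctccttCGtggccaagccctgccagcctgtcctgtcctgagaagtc
Sptbn4: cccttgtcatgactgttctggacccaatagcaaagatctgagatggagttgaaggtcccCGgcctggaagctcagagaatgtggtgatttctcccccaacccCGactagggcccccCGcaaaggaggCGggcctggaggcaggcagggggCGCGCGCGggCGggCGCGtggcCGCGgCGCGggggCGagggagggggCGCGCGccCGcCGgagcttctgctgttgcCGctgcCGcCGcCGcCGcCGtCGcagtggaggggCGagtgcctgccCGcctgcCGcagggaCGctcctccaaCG
Sptbn4: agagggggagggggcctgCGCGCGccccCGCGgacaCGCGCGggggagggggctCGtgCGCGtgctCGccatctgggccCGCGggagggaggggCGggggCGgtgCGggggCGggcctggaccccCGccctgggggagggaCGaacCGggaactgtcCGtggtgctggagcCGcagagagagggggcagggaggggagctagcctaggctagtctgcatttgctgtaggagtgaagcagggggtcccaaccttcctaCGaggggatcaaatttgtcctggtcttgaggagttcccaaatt
Sgms1: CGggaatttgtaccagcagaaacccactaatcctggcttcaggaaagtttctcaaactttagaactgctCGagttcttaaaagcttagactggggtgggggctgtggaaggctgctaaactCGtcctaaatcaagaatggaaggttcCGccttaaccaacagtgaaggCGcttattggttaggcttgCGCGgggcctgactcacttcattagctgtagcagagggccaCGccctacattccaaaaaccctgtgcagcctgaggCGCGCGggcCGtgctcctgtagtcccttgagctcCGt
Mga: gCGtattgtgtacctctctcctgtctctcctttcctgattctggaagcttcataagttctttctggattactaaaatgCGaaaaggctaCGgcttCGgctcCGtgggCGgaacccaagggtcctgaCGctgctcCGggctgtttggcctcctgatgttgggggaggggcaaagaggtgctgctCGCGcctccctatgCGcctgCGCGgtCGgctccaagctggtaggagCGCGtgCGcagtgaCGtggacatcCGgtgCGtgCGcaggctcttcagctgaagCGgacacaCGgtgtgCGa
Adcy9: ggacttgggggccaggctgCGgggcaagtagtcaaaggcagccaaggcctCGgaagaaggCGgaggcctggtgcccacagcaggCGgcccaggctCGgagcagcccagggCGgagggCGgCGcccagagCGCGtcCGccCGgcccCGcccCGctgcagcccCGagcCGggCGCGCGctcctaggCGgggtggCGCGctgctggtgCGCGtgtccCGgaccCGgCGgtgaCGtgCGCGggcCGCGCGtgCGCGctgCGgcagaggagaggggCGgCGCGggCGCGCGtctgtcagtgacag
The Gng7 window (chr10:81001316-81001615, minus strand) holds 6 CpG, that of Celf6 (chr9:59589038-59589337, plus strand) 4, that of Kcnab2 (chr4:152452896-152453195, minus strand) 5 and that of Cyth1 (chr11:118212682-118212981, minus strand) 4. The Sptbn4 windows (chr7:27396504-27396803, minus strand and chr7:27396149-27396448, minus strand) hold 33 and 24. The windows of Sgms1 (chr19:32210964-32211263, minus strand), Mga (chr2:119896978-119897277, plus strand) and Adcy9 (chr16:4420449-4420748, minus strand) hold 13, 24 and 42.

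Deep intragenic regions were narrow and weak. Their median width was 713 bp (218 to 4054 bp), against 1104 bp for all other regions, and their median level was 2.37 CPM (counts scaled to library size) per kb, against 10.2 CPM per kb. Regions with a RefSeq start inside were wider and stronger, with a median width of 1652.5 bp and 16.6 CPM per kb, against 666 bp and 2.24 CPM per kb for regions without one. The median region lay 28.0 kb from the nearest gene end, and the farthest lay 635 kb away. Host strand was known for 4519 regions, and these lay at a median of 67.7 kb from the annotated start of the host and 46.1% of the way along it. The hosts were long, with a median of 181.5 kb. Of the hosts, 1351 held 1 region and 39 held 10 or more. On either side of the distance limit, the nearest regions inside the set, in Rerg and Kif28, had 1.5 and 0.455 CPM, and the nearest ones outside it, in Dlgap1 and Clns1a, had 1.65 and 3.48 CPM.

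**Figure D1:**
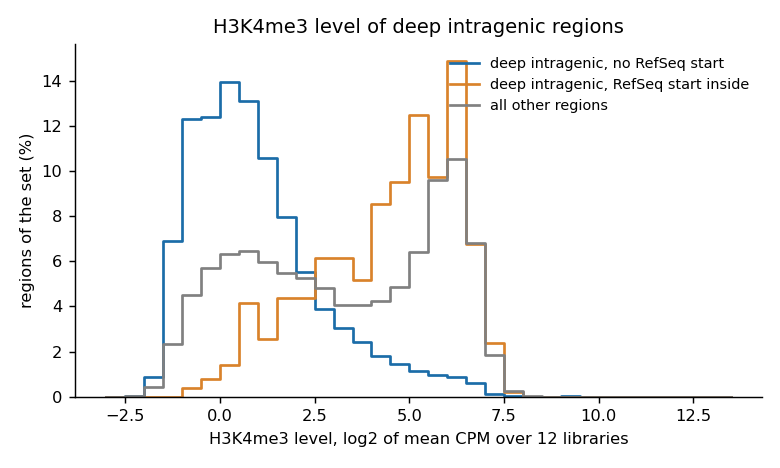
Distribution of the H3K4me3 level, as log2 of the mean CPM over 12 libraries on the x axis, with the percent of each set on the y axis, for deep intragenic regions without and with a RefSeq start and for all other regions. Regions without a start gather at low levels (median 1.55 CPM). Those with a start have a median of 28.3 CPM, against 10.1 CPM for all other regions.

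The most regions in 1 host were the 31 in Tcf4, a helix-loop-helix transcription factor on chromosome 18. Tenm3, a teneurin of neuronal wiring, held 20, the phosphodiesterase Pde4d held 18, and the postsynaptic protein Anks1b and the adhesion protein Lsamp held 17 each. Tenm3 spanned 1297 kb and Lsamp 2197 kb, against 344.5 kb for Tcf4.

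The strongest region by CPM lay in Chl1, an adhesion molecule of the L1 family, at chr6:103648824-103649539. It had 379 and 328 CPM in KO and 397 and 563 CPM in WT under standard conditions. After novelty it had 373 and 464 CPM in KO and 413 and 503 CPM in WT. It had 1520.5 and 970.4 CPM in ifKO and 853 and 1191 CPM in ifWT. All 4 libraries of the C57BL/6J cohort stood above all 8 libraries of the mixed cohort, and strain and cohort cannot be told apart. KO was lower than WT under standard conditions (log2 change -0.44 ± 0.14 SE, edgeR adjusted p = 0.037), with no overlap of the libraries. The call was lost in 6 of 12 alternatives, and the log2 change was -0.17 without WT standard replicate 2. The other 9 of the 10 strongest regions lay in Adcy9, an adenylyl cyclase gene, Stox2, Gpm6a, Tcf4, Chn1, Nav2, Bicral, Sema6d and Kansl1, with means from 162 to 201 CPM. None of those 9 passed the test in KO under standard conditions or in ifKO, and only Gpm6a, a neuronal membrane glycoprotein, rose in KO after novelty (log2 change 0.24 ± 0.06 SE, edgeR adjusted p = 0.01), a call lost in 3 of 12 alternatives. Without WT novelty replicate 1 its log2 change was 0.15.

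KO hippocampus had more H3K4me3 than WT at 551 of the 5770 deep intragenic regions tested and less at 47 under standard conditions (14 regions had too few counts to test). Across all 35955 regions tested, 9.74% were higher and 3.67% lower (13.4% called), so the 9.55% higher among deep intragenic regions is near the background, and the 0.815% lower is below it. The median log2 change was 0.14, against 0.01 over all regions, and a change of at least 1 in size was seen in 296 regions that rose and 8 that fell. Deep intragenic regions took 5.40% and 5.17% of counts in the KO libraries, against 4.98% and 4.91% in the WT libraries, so the groups did not overlap. Without WT standard replicate 2 the counts were 267 higher and 11 lower, without WT standard replicate 1 they were 336 and 16, and without KO standard replicate 1 they were 294 and 26. DESeq2 called 350 and 34, and 189 of the 551 and 1 of the 47, in Aopep, were called whichever library was left out.

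Counts of falls differed by level. Among regions of log2 CPM above 5, 6.24% of the 433 deep intragenic ones were higher and 6.00% lower, against 4.04% and 10.2% of 10732 other regions. Between log2 CPM 3 and 5 the shares were 18.2% higher and 0.976% lower among 615 deep intragenic regions, against 17.1% and 1.90% among 5221 others. Below log2 CPM 0 they were 3.89% and 0.324%, against 5.55% and 0.201%. The differences between the sets were not tested.

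**Figure D2:**
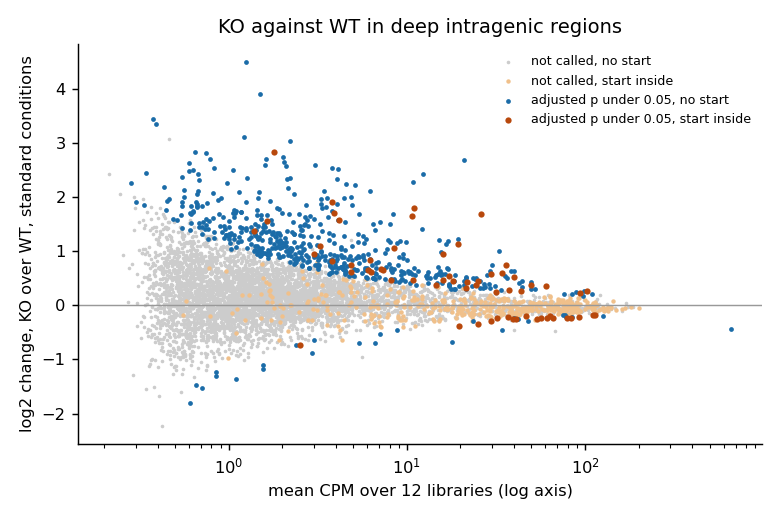
Log2 change of KO over WT under standard conditions (y axis) against the mean CPM over 12 libraries on a log axis (x axis), 1 point per deep intragenic region. Called regions without a start lie mostly above 0 at 1 to 10 CPM, and called regions with a start lie on both sides.

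The 10 regions with the largest rises under standard conditions, limited to a mean level of log2 CPM 1 or more, were low in WT. The largest log2 change among them was in Sphkap, an anchor protein for cAMP-dependent kinase, at chr1:83275051-83276066. It had 6.04 and 5.47 CPM in KO and 0.584 and 0.804 CPM in WT (log2 change 3.04 ± 0.28 SE, edgeR adjusted p = 7.5e-10). Both KO libraries stood far above both WT libraries. After novelty it had 3.88 and 3.58 CPM in KO and 0.760 and 0.939 CPM in WT, and in the other line 2.01 and 1.35 CPM in ifKO and 0.441 and 0.625 CPM in ifWT. The groups did not overlap in any of these pairs, and the smaller rise in ifKO (log2 change 1.64 ± 0.36 SE, edgeR adjusted p = 0.0029) was lost in 2 of 12 alternatives. Sphkap held 5 deep intragenic regions, of which 4 within 4 kb of each other rose under standard conditions, while the region at its annotated start fell (log2 change -0.26, edgeR adjusted p = 0.026).

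The region in Tnxb, which encodes the matrix protein tenascin X, was the strongest of the 10 (chr17:34671150-34673476). It had 39.8 and 40.3 CPM in KO and 5.84 and 6.61 CPM in WT (log2 change 2.68 ± 0.13 SE, edgeR adjusted p = 1.9e-16). After novelty it had 36.1 and 36.7 CPM in KO and 5.99 and 6.96 CPM in WT. It had 30.7 and 21.2 CPM in ifKO and 9.89 and 9.78 CPM in ifWT, so all 3 pairs were separate, and the rise in ifKO was smaller (KO minus ifKO 1.28 ± 0.19 SE, edgeR adjusted p = 1.8e-04).

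Poc1a, which encodes a centriole protein, had a region (chr9:106299902-106301751) that rose in all 3 comparisons. It had 22.5 and 22.8 CPM in KO and 4.22 and 4.20 CPM in WT under standard conditions (log2 change 2.43 ± 0.14 SE, edgeR adjusted p = 9.6e-15). It had 19.3 and 21.2 CPM in KO and 4.64 and 3.51 CPM in WT after novelty, and 19.4 and 17.6 CPM in ifKO and 4.51 and 4.55 CPM in ifWT. Both mutant libraries stood above both control libraries in each pair, with log2 changes of 2.32 after novelty and 2.03 in ifKO. The annotated start of Poc1a, with 43.2 CPM, had a log2 change of 0.06 (edgeR adjusted p = 0.64).

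**Figure D3:**
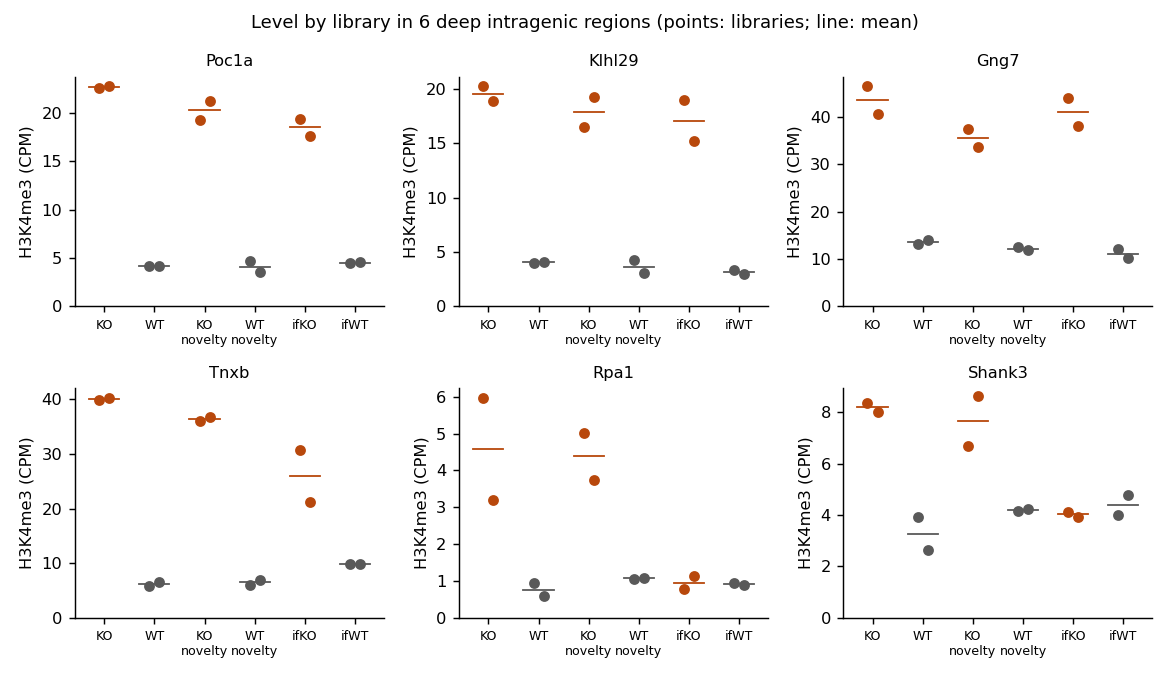
H3K4me3 level in CPM (y axis) in each library (points) and group mean (line) for regions in Poc1a, Klhl29, Gng7, Tnxb, Rpa1 and Shank3, by group (x axis). In the first 4 every mutant library stands above every control library, whereas in Rpa1 and Shank3 the ifKO and ifWT libraries lie at similar levels.

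The other named risers reached log2 changes of 2.35 to 2.74. They lay in Ctif, a translation initiation factor, in Clstn2, a calsyntenin of synapses, and in Robo1, the Slit receptor of axon guidance. They also lay in Rpa1, a subunit of the single-stranded DNA binding protein RPA, in Msra, a methionine sulfoxide reductase, in Elk3, an ETS transcription factor, and in Stk32c, a protein kinase. Elk3 had 7.60 and 7.05 CPM in KO and 1.44 and 1.12 CPM in WT, and Robo1 had 5.71 and 6.72 CPM in KO and 1.08 and 0.983 CPM in WT. All 10 kept their call in all 12 alternatives for this comparison.

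Falls were smaller. Pde10a, a cyclic nucleotide phosphodiesterase, had 2.18 and 1.98 CPM in KO and 4.31 and 3.35 CPM in WT (log2 change -0.88 ± 0.22 SE, edgeR adjusted p = 0.0069), with no overlap of the libraries and a call lost in 2 of 12 alternatives. After novelty it had 3.15 and 2.85 CPM in KO and 3.04 and 3.27 CPM in WT. The fall called whichever library was left out lay in Aopep, which encodes an aminopeptidase, with 14.5 and 14.6 CPM in KO and 22.5 and 24.2 CPM in WT (log2 change -0.68 ± 0.11 SE, edgeR adjusted p = 1.9e-05). Both KO libraries lay below both WT libraries, and the call held in all 12 alternatives. Kif26b, of the kinesin family, had 31.5 and 30.9 CPM in KO and 40.2 and 45.8 CPM in WT (log2 change -0.46 ± 0.10 SE, edgeR adjusted p = 0.0012), a fall lost in 1 of 12 alternatives and also called after novelty. The remaining named falls lay in Kcnip4, a partner of Kv4 channels, Slc20a2, a phosphate transporter, Abcb1a, a drug transporter of the vessel wall, Mylk, a myosin light chain kinase, Ptgis, the prostacyclin synthase, Ncald, a neuronal calcium sensor, and Cdh4, a cadherin. Their log2 changes ran between -0.73 and -0.46, and each lost its call in 2 to 7 of 12 alternatives.

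After novelty KO exceeded WT at 684 regions and was below it at 86, against 11.1% higher and 5.94% lower over all regions (17% called). In shares this is 11.9% and 1.49% of the 5770, and the median log2 change was 0.17. The counts were 314 and 14 without WT novelty replicate 2, 392 and 22 without KO novelty replicate 1, and 434 and 60 by DESeq2. Its libraries are separate from those of standard conditions, though both comparisons come from 1 fit. The sets shared 403 higher regions, which is 73.1% of those under standard conditions and 58.9% of those after novelty, and 21 lower ones, 44.7% and 24.4%. How many calls the comparisons shared over all regions tested was not counted. No region was called in opposite directions. Across the 5770 regions, which are not independent, the log2 changes correlated with Pearson's r = 0.60 and Spearman's rho = 0.53.

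Among the named risers after novelty, Itga11, a collagen-binding integrin, had 7.31 and 9.73 CPM in KO and 1.18 and 1.53 CPM in WT (log2 change 2.62 ± 0.21 SE, edgeR adjusted p = 5.4e-11). Klhl29, a kelch-like protein, had 16.5 and 19.2 CPM in KO and 4.26 and 3.06 CPM in WT (log2 change 2.30 ± 0.15 SE, edgeR adjusted p = 5.3e-13). In both the KO libraries stood several times above the WT libraries. Pnpla1, a phospholipase-like protein, Matn2, a matrilin, and Rab31, a small GTPase of vesicle traffic, joined Ctif, Tnxb, Robo1, Msra and Poc1a in this group, with log2 changes of 2.14 to 2.85. Of the named falls, Ptgis was the one whose call held in all 12 alternatives, with 1.65 and 2.2 CPM in KO and 4.22 and 4.14 CPM in WT (log2 change -1.13 ± 0.22 SE, edgeR adjusted p = 5.0e-04). Its KO and WT libraries did not overlap. The falls in Cdk5rap1, Hectd4, Kcnip4, Hace1, Camkmt, Tenm3, Mylk, Prdm6 and Adgrl3 had log2 changes between -1.27 and -0.71 and were lost in 2 to 7 alternatives each.

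Novelty itself gave no call in deep intragenic regions. Novelty against standard conditions gave 0 calls in KO and 0 in WT among the 5770, and the interaction of genotype and novelty gave 0, by edgeR, DESeq2 and limma-voom. Over all regions 0% were called in KO, 0.00556% in WT and 0% in the interaction. At an unadjusted p under 0.05 there were 264, 300 and 210 of the 5770, against 1416, 1679 and 1055 of all 35955 regions, and a fit to the WT groups alone called 10. The smallest p values lay in Ldb2 and Epb41l1 in KO (log2 changes -1.09 and 0.21), in Rtn4 and Creb1 in WT (-0.39 and 2.73), and in Adgrg1 and Smad4 for the interaction (-1.56 and -2.17). Creb1, which encodes the activity-regulated factor CREB, had 0.802 and 1.32 CPM in WT after novelty and 0.180 and 0.134 CPM in WT under standard conditions (edgeR adjusted p = 0.19). The levels under standard conditions are close to 3 counts per library, which is 0.0953 to 0.168 CPM. Of 30 activity-induced genes, 3 held deep intragenic regions, 9 in all, and 1 of them fell in KO under standard conditions and another after novelty, both in Pde10a.

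In the other line, ifKO exceeded ifWT at 263 regions and was below it at 17, against 4.41% and 0.976% of all regions (5.38% called). In shares this is 4.56% and 0.295%, with a median log2 change of 0.06. The counts were 134 and 7 without ifKO replicate 1, and 156 and 2 without ifWT replicate 1. The libraries of this line are separate from those of the KO comparison. The sets shared 198 higher regions, 35.9% of those in KO under standard conditions and 75.3% of those in ifKO, and 3 lower ones, in Dst, Wdtc1 and Iqgap1, which are 6.38% and 17.6%. No region was called in opposite directions, and across regions r was 0.34 and rho 0.27. A higher call in all of KO under standard conditions, KO after novelty and ifKO was given to 174 regions in 150 hosts. A lower call in all 3 was given to 2, in Dst, a cytoskeletal linker, and Wdtc1, chosen here after their values were seen. Their log2 changes in KO under standard conditions were -0.20 and -0.23. Shared calls were not counted over all regions tested, so whether this agreement is particular to deep intragenic regions was not tested.

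**Figure D4:**
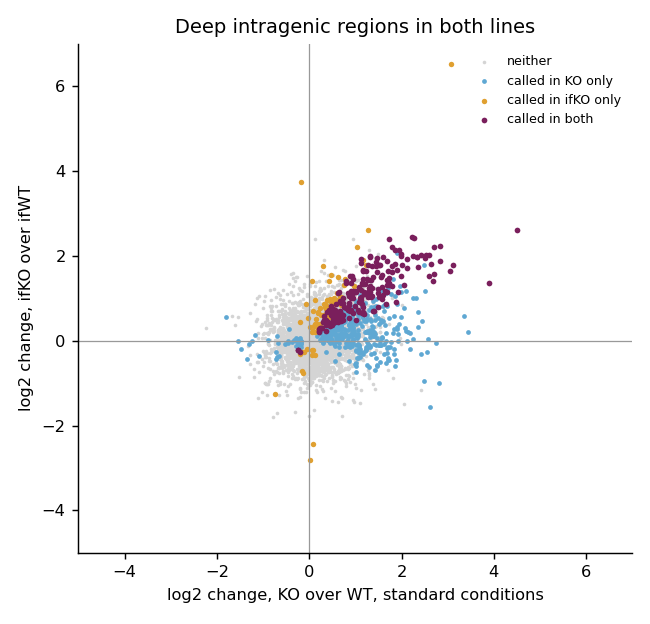
Log2 change in ifKO over ifWT (y axis) against KO over WT under standard conditions (x axis), 1 point per deep intragenic region, coloured by call. The 198 regions higher in both lie in the upper right, and no called pair lies in the opposite corners.

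The 5 risers named in ifKO lay in Itga11, Klhl29, Pitpnm2, a phosphatidylinositol transfer protein, Fhad1 and Btbd9. Itga11 had 9.62 and 8.09 CPM in ifKO and 1.76 and 1.47 CPM in ifWT (log2 change 2.45 ± 0.22 SE, edgeR adjusted p = 1.2e-09). Klhl29 had 18.9 and 15.2 CPM in ifKO and 3.38 and 2.99 CPM in ifWT (log2 change 2.42 ± 0.17 SE, edgeR adjusted p = 2.2e-12). Neither pair of groups overlapped, and all 5 regions also rose in KO under both conditions. The 5 named falls, in Tjp1, a tight junction protein, Abl2, a tyrosine kinase, Nol4l, Gatad2a, a subunit of the NuRD complex, and Specc1, had log2 changes of -0.77 to -0.30. None of these 5 passed the test in KO under either condition, and each was lost in 3 to 9 of 12 alternatives.

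The KO effect under standard conditions exceeded the ifKO effect at 24 regions and was below it at 2, in Aopep and Ankrd6, against 0.651% and 0.0501% of all regions (0.701% called). This comparison also differs in strain and cohort, which cannot be told apart from the allele. Rpa1 had 5.95 and 3.19 CPM in KO and 0.943 and 0.581 CPM in WT, but 0.771 and 1.12 CPM in ifKO and 0.931 and 0.893 CPM in ifWT. Adap1, which regulates the small GTPase ARF6, had 6.82 and 5.61 CPM in KO and 1.48 and 1.92 CPM in WT, and 1.59 and 0.786 CPM in ifKO and 1.47 and 2.14 CPM in ifWT. Its difference of log2 changes (2.45 ± 0.39 SE, edgeR adjusted p = 6.6e-04) held in all 16 alternatives. Shank3, the postsynaptic scaffold, had 8.38 and 8.0 CPM in KO and 3.91 and 2.64 CPM in WT, and 4.11 and 3.93 CPM in ifKO and 4.02 and 4.78 CPM in ifWT. In these 3 genes the KO and WT libraries were separate, while the ifKO libraries were not above the ifWT libraries as a group. Ankrd6 went the other way, with 5.14 and 4.38 CPM in ifKO and 1.81 and 1.79 CPM in ifWT, against 2.87 and 3.78 CPM in KO and 2.92 and 3.49 CPM in WT.

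Regions with a RefSeq start inside were set out by the CpG content of that start. Among all 504, 43 were higher and 19 lower in KO under standard conditions (8.53% and 3.77%), against 508 and 28 of 5266 regions without a start (9.65% and 0.532%). Start windows on chromosome 18, where 234 of the regions lie, were not used here, and those regions count among the ones without a start. Some hosts on other chromosomes also had no entry in the start table. Host strand, read from that table for regions with a single host, was known for 4519 of the 5784 regions. Regions in hosts without an entry also count among those without a start, so that set can hold starts that were not listed. The start window nearest the centre of each region held a median of 6 CpG in the higher regions, 22 in the lower regions and 11 in the 442 not called. Of 85 windows with 0 to 4 CpG, 12 were in higher regions and 0 in lower ones. Of 142 windows with 20 or more, 3 were in higher regions, those of Mga, Rap1gap and Sptbn4, and 11 in lower ones. After novelty 17 of the 85 CpG-poor windows were in higher regions and 0 in lower ones, against 3 (the same genes) and 25 of the 142. In ifKO the CpG-poor windows gave 3 higher, in Rapgef2, Celf6 and Cyth1, and 0 lower, against 2 higher, in Mga and Sptbn4, and 7 lower at 20 or more CpG. Genes outside the named regions were chosen here after their values were seen. The order of the medians was the same in all 3 comparisons, with 6 higher and 22 lower after novelty and 9 and 29.5 in ifKO.

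**Figure D5:**
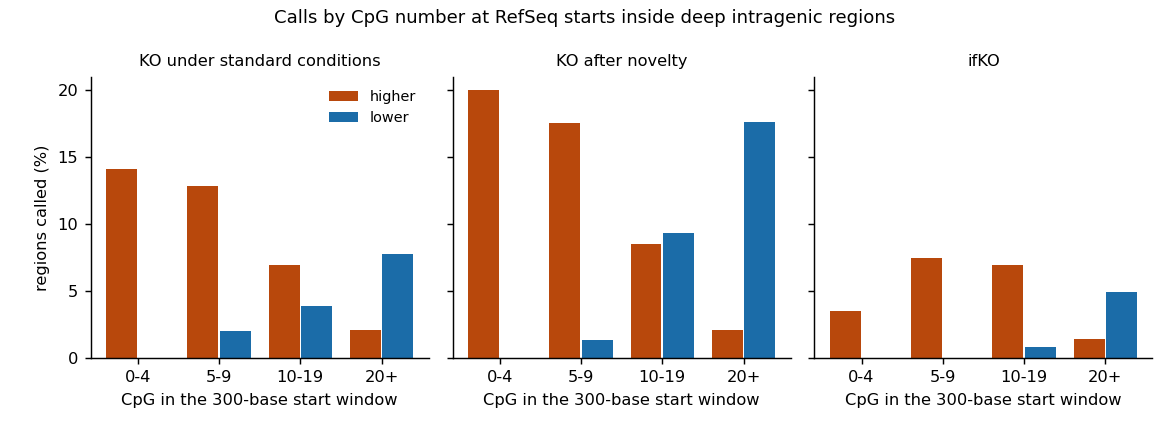
Percent of start-bearing deep intragenic regions called higher and lower (y axis, from 0) by the number of CpG in the start window (x axis), in KO under standard conditions, KO after novelty and ifKO, each against its control. Higher calls are rarest and lower calls most frequent at 20 or more CpG in each panel.

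CpG content and level moved together: the median level was 9.49 CPM for windows with 0 to 4 CpG and 54.15 CPM for those with 20 or more. At or above the median level of 28.3 CPM, 12.1% of 58 regions with under 10 CpG were higher in KO under standard conditions and 3.45% lower, against 2.06% and 7.22% of 194 with 10 or more. Below that level the shares were 13.7% and 0.571% of 175, against 10.4% and 2.60% of 77. After novelty the shares at or above that level were 22.4% and 0% against 3.09% and 15.5%, and below it 17.1% and 1.14% against 10.4% and 9.09%. In ifKO they were 5.17% and 0% against 2.06% and 4.12% at or above that level, but below it the order of the higher calls turned round, with 6.29% against 9.09% and 0 lower calls in both. Start-bearing regions outside the deep intragenic set showed the same order, with 20.9% higher and 2.77% lower among 541 with 0 to 4 CpG and 3.51% and 9.31% among 6102 with 20 or more. No test was made of these shares, since windows are not replicates of a condition. Motifs were searched on both strands. The E-box CACGTG was in 3 of the 43 windows of higher regions (6.98%), those of Gng7, Lims1 and Nt5c2, and in 7.15% of all 32851 start windows. The E2F-type letters TTCCCGCC were in 0 of the 43 and 2.19% of all, and the cAMP response element TGACGTCA was in 1 (2.33%), that of 9330159F19Rik, and 1.79%.

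Gng7, a G protein gamma subunit gene, held a risen region with an internal start at chr10:80999782-81003021. It had 46.5 and 40.6 CPM in KO and 13.2 and 13.9 CPM in WT (log2 change 1.69 ± 0.10 SE, edgeR adjusted p = 2.9e-14). After novelty it had 37.3 and 33.6 CPM in KO and 12.5 and 11.8 CPM in WT, and it had 43.9 and 38 CPM in ifKO and 12.0 and 10.3 CPM in ifWT. The groups were separate in all 3 pairs. The region at the outermost annotated start of Gng7 fell in KO (log2 change -0.38, edgeR adjusted p = 0.0073), with a mean of 22.9 CPM over the 12 libraries. Celf6, an RNA-binding protein, had 18.8 and 15.9 CPM in KO and 5.26 and 4.69 CPM in WT at its internal start (log2 change 1.80 ± 0.14 SE, edgeR adjusted p = 2.6e-11). Kcnab2, an auxiliary subunit of Kv channels, had 6.86 and 6.61 CPM in KO and 2.16 and 1.97 CPM in WT (log2 change 1.70 ± 0.22 SE, edgeR adjusted p = 5.9e-07). Both were also higher after novelty and in ifKO. Cyth1, an exchange factor for ARF proteins, had 20.4 and 19.2 CPM in KO and 6.65 and 5.90 CPM in WT (log2 change 1.66 ± 0.13 SE, edgeR adjusted p = 3.8e-11), and it also rose in ifKO (log2 change 0.87 ± 0.15 SE, edgeR adjusted p = 1.2e-04).

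Sptbn4, the spectrin of the axon initial segment, held neighbouring regions with opposite calls, each with an annotated start. The region at chr7:27396443-27397561 had 21.1 and 18.4 CPM in KO and 10.6 and 9.79 CPM in WT (log2 change 0.95 ± 0.12 SE, edgeR adjusted p = 2.7e-07). The region at chr7:27395138-27396333 had 21.6 and 19.2 CPM in KO and 24.6 and 26.8 CPM in WT (log2 change -0.34 ± 0.10 SE, edgeR adjusted p = 0.022). The KO and WT libraries were separate in both regions, in opposite directions. After novelty the first was higher (log2 change 0.90 ± 0.11 SE, edgeR adjusted p = 3.3e-07) and the second lower (log2 change -0.32 ± 0.10 SE, edgeR adjusted p = 0.02). In ifKO the first was higher (log2 change 0.65 ± 0.12 SE, edgeR adjusted p = 3.0e-04), and the second had 27.7 and 28.0 CPM in ifKO and 29.1 and 25.9 CPM in ifWT. The lower call was lost in 2 of 12 alternatives under standard conditions and 3 after novelty, and the higher calls in none. Sgms1, a sphingomyelin synthase gene, is an example of a fall at an internal start, with 28.9 and 29.0 CPM in KO and 36.5 and 34.2 CPM in WT (log2 change -0.29 ± 0.08 SE, edgeR adjusted p = 0.015), lost in 4 of 12 alternatives.

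The annotated starts of the hosts were counted in the same way. Of 291 host start regions of the risen regions, 11 were higher and 20 lower in KO under standard conditions (3.78% and 6.87%, median log2 change -0.05). Over the host starts of all deep intragenic regions, 57 and 133 of 1653 were (3.45% and 8.05%). Risen regions lay in 441 hosts, of which 80 held 2 or more and 11 also held a fallen one. Nfix, a nuclear factor I transcription factor, and Tcf4 had the most, with 6 each. The 6 in Nfix, of 10 tested, had log2 changes of 0.24 to 0.88 and were lost in 0 to 5 of 12 alternatives, and all 10 in this host ranged from -0.06 to 0.88. The strongest risen one in Tcf4 by level was at chr18:69563091-69565406, with 37.8 and 33.7 CPM in KO and 28.3 and 24.3 CPM in WT (log2 change 0.44 ± 0.11 SE, edgeR adjusted p = 0.0042). It no longer passed with WT standard replicate 2 left out (edgeR adjusted p = 0.16) or with KO standard replicate 1 left out (edgeR adjusted p = 0.08). Its KO and WT libraries did not overlap, but those of the other line did, with 22.4 and 17.2 CPM in ifKO and 17.1 and 20.3 CPM in ifWT. By position along the host the share higher was 8.57% of 980 regions between 0 and 25% of its length, 9.52% of 1502 between 25 and 50%, 10.1% of 1253 between 50 and 75%, and 9.94% of 775 beyond. By distance from the host start it was 11.2% of 920 regions at 10 to 25 kb and 12.0% of 887 at 25 to 50 kb. It was 9.56% of 973 at 50 to 100 kb, 6.83% of 776 at 100 to 200 kb and 7.97% of 954 beyond 200 kb. In ifKO it was 4.46% at 10 to 25 kb and 4.72% beyond 200 kb.

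Hosts were also grouped by function, and the shares are to be read against the 9.55% higher and 0.815% lower of all deep intragenic regions. The lists share hosts, so a region can count in more than 1 of them, and a few hosts hold many of the calls. Tcf4, with 6 risen regions, and Camta1, with 3, count among both the regulators and the genes known for several promoters. Nfix, with 6, and Gse1, with 4, also count among the regulators. The 3 in Grik4 count among both the receptors and the pyramidal and granule neuron genes below. Hosts that encode glutamate and GABA receptors had 6 higher and 0 lower of 37 regions in KO under standard conditions, with a median log2 change of 0.32. They included the kainate receptor Grik4, with log2 changes of 1.56, 0.74 and 0.28 in 3 regions. The region at chr9:42852440-42854094 had 4.27 and 4.88 CPM in KO and 2.43 and 3.04 CPM in WT (log2 change 0.74 ± 0.23 SE, edgeR adjusted p = 0.03). Its KO and WT libraries did not overlap, and the call was lost in 6 of 12 alternatives. Transcription and chromatin regulators had 31 higher and 1 lower, in Auts2, of 260 (median 0.16), among them Gse1, a corepressor subunit, with 7.19 and 7.49 CPM in KO and 1.98 and 1.74 CPM in WT, and Tox2, an HMG-box factor. Genes known for several promoters had 29 higher and 2 lower, in Auts2 and Dst, of 236 (median 0.13). Among the higher were regions in Rbfox1, a splicing factor, and Dmd, which encodes dystrophin. The Dmd call was lost in 5 of 12 alternatives and the Rbfox1 call in 0. The list of postsynaptic scaffolds and signalling genes, which also holds presynaptic genes such as Erc2 and Rims1, had 17 higher and 1 lower, in Pde10a, of 186 (median 0.13). Erc2, an active zone protein, had 8.21 and 8.59 CPM in KO and 1.75 and 1.56 CPM in WT. Both KO libraries of Erc2 and of Gse1 stood above both WT libraries. Synaptic adhesion and axon guidance genes had 12 higher and 1 lower, in Cdh4, of 258 (median 0.10), with Robo1, Tenm2 and Dscaml1 among the higher. Ion channel genes had 5 higher and 1 lower of 88 (median 0.18), the higher ones in Cacna1b, the pore of N-type calcium channels, Cacnb4, Scn2a and Trpm3, and the lower one in Kcnip4. Of these, the call in Cacna1b was lost in 7 of 12 alternatives, that in Cacnb4 in 4, that in Kcnip4 in 5, and the larger of the Trpm3 rises in 5. The 2 regions in H3K4 methylation enzymes, in Kmt2c and Smyd3, gave 0 higher and 0 lower.

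Hosts that mark cell types held few deep intragenic regions, so their counts are small and are given for KO against WT under standard conditions. Over all regions tested 9.74% were higher and 3.67% lower, shares against which counts this small cannot be read. With so few regions, 0 calls does not show that a group was unchanged. Pyramidal and granule neuron genes had 5 higher and 0 lower of 39, among them Prox1, a dentate granule cell factor, with 3.70 and 2.46 CPM in KO and 1.53 and 1.16 CPM in WT, and the others in Bcl11b and Grik4. The Prox1 and Bcl11b calls were lost in 2 of 12 alternatives each. Interneuron genes had 0 and 0 of 13, astrocyte genes 0 and 0 of 7, and oligodendrocyte genes 0 and 0 of 24. After novelty the astrocyte genes had 1 higher and 1 lower of 7 in KO, and in ifKO 1 higher and 0 lower, all in Slc4a4, a bicarbonate transporter gene. Microglial genes had 3 higher and 1 lower of 25, of which Arhgap15, a Rac-directed GTPase activator, held 2 higher and 1 lower and the overlap of Med12l and P2ry12 held 1 higher. The P2ry12 call and the Arhgap15 fall were lost in 8 of 12 alternatives each, and the weaker Arhgap15 rise in 5. The strongest Arhgap15 region had 27.6 and 22.8 CPM in KO and 10.7 and 12.2 CPM in WT, with no overlap. Endothelial and mural genes had 2 higher, both in the VEGF receptor gene Flt1, and 1 lower, in Abcb1a, of 19. The Flt1 rise at chr5:147644954 was lost in 3 of 12 alternatives and that at chr5:147645676 in 0. Whether the number of these cells differed between the groups was not tested.

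Few deep intragenic regions overlapped the 2321 regions listed in the Kdm5C and H3K4me1 files, 38 of 5784 (0.657%) against 6.43% of all regions. Kdm5C signal is read here as summed coverage in bases, from 1 library a genotype, so there is no test and no replicate. These libraries came from C57BL/6J mice, whereas the KO and WT mice of the H3K4me3 comparisons had the mixed F1 background. Kdm5C and H3K4me3 were thus not measured in the same mice. Summed over all listed regions, Kdm5C signal was 852275 bases in KO and 3835440 bases in WT, and over the 38 its median was 265.5 bases in KO and 1153 bases in WT. H3K4me1 was also lower in KO over all listed regions, with 396072 bases in KO and 645195 bases in WT. Its median over the 38 was 169 bases in KO and 244 bases in WT. None of these values was scaled to library depth here. Of these 38, 20 held a RefSeq start. In KO under standard conditions 10 rose and 2 fell in H3K4me3, which is 26.3% and 5.26%, against 9.74% and 3.67% of all regions tested. The median log2 change of the 38 was 0.02. After novelty 9 were higher and 5 lower (23.7% and 13.2%, median -0.02), against 11.1% and 5.94% of all regions. In ifKO 7 were higher and 1 lower (18.4% and 2.63%, median 0.01), against 4.41% and 0.976%. The median level of the 38 was 68.9 CPM, and the differences in shares were not tested. The highest Kdm5C value lay at the internal start of Mga, which encodes a MAX partner found in a Polycomb complex, with 1340 bases in KO and 9783 bases in WT. H3K4me1 there was 240 bases in KO and 832 bases in WT. H3K4me3 at the Mga region was 58.3 and 58.3 CPM in KO and 45.6 and 44.9 CPM in WT (log2 change 0.37 ± 0.07 SE, edgeR adjusted p = 2.3e-04). The libraries of both groups were separate, and the call held in all 12 alternatives. The region at the annotated start of Mga rose too (log2 change 0.64, edgeR adjusted p = 6.2e-10). Cpm, a carboxypeptidase gene, and Slc2a3, a neuronal glucose transporter gene, had the largest rises among the 38, with log2 changes of 0.74 and 0.63. Of the 10 rises under standard conditions, those in Itpkb, Arid4a, Map4, Nr3c1 and Cyth1 (chr11:118197849-118198495) were lost in 2 to 5 of 12 alternatives. Those in Mga, Camta1, Cpm, Slc2a3 and Exoc3l2 were lost in 0. The falls were in Arntl, the clock factor BMAL1, and Nedd4l, a ubiquitin ligase, with log2 changes of -0.22 and -0.21, lost in 3 and 5 of 12 alternatives.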

How the data were processed

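H3K4me3 was measured by chromatin immunoprecipitation and sequencing in 12 hippocampal libraries. The authors deposited counts of reads per region, 1 column a library, over 36005 listed regions, of which 9 repeats were dropped. Bowtie2 2.2.9, SAMtools 1.3.1, MACS2 2.1.0, featureCounts, DESeq2 1.10.0 and R 3.3 are named, with GRCm38 and mm10, per the submitters' processing notes. The sources used here do not give how the regions were drawn, and their coordinates are used as deposited, on mm10. The deposited Kdm5C and H3K4me1 values are headed raw counts but look like summed base coverage, and they were read here as a signal in bases. The unit is not stated otherwise. On that reading 50 bases are about 1 read.

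Regions were set against 49943 genes of the GRCm38.p6 table, and start windows came from the RefSeq promoter table (32851 windows, 27025 genes). No exon annotation was used. The members and gene lists were chosen with earlier results of these data known. Counts of all 12 libraries entered 1 edgeR 4.0.16 quasi-likelihood fit (R 4.3.3) with 6 group means, TMM factors and edgeR's filter on low counts. P-values were adjusted by Benjamini-Hochberg over all 35955 regions tested, with a threshold of 0.05. CPM are counts scaled by TMM-adjusted library sizes. A standard error (SE) is that of the log2 change. The procedure was tested on simulated data. P-values rest on the spread between libraries within groups, each a pool of mice, estimated for each region over all 6 groups together. The labels do not give days or litters, so whether these add to that spread is not known. The floor of 3 counts per library was taken for counting error only.

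Named regions were the 10 strongest, those with the largest called changes per comparison limited to a mean level of log2 CPM 1 or more, the largest called changes per gene list, the smallest p-values for novelty, and regions nearest the distance limit. Regions in Sptbn4, Nfix, Sphkap and Tcf4, those with a start and a call, and those with a call under Kdm5C were added after their values were seen. Alternatives were DESeq2 1.42.0, limma-voom (limma 3.58.1), RLE factors, library totals, loess offsets by strength, no filter, a replicate block, the compared groups alone, each library left out, and distances of 5 and 20 kb.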

Additional observations from a re-analysis of the deposited data

Results flagged for a closer look

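The effect of KO over WT under standard conditions differed from that of ifKO over ifWT in 9 of the named deep intragenic regions, by a test of the difference of log2 changes in the same edgeR fit. Some of these regions were named because they passed this test, so the count of 9 is set by that choice. Of all 5770 deep intragenic regions tested, 24 were higher and 2 lower, against 0.651% and 0.0501% of all regions. The lines also differ in strain and cohort, which cannot be told apart from the allele. The difference (KO minus ifKO, log2) was 2.81 in Ctif, 2.52 in Rpa1, 2.45 in Adap1, 2.37 in Arhgap39, 2.11 in 5031439G07Rik, 1.45 in Shank3 and 1.28 in Tnxb. It was -0.63 in Aopep and -1.34 in Ankrd6. In Tnxb the region rose in both lines, and in Ankrd6 it rose in ifKO and passed no test in KO. In the other 6 with a positive difference the region rose in KO and passed no test in ifKO. The difference was lost in 0 of 16 alternatives in Tnxb and Adap1, 2 in Ctif and Shank3, 4 in Arhgap39, 6 in Rpa1, 8 in 5031439G07Rik, 10 in Aopep and 11 in Ankrd6.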

How the results depend on the processing

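Of 3012 recomputed values for the 248 calls of named regions, 2577 kept direction and threshold, 435 lost the threshold and 0 turned round. DESeq2 called 384 regions in KO under standard conditions, 494 in KO after novelty and 15 in the difference between KO and ifKO, against 598, 770 and 26 by edgeR. Limma-voom called 8 and the compared groups alone 16 in that difference, and the compared groups alone called 10 for novelty in WT. Leaving out 1 library gave 278 to 530 calls in KO under standard conditions, 328 to 625 after novelty, 141 to 336 in ifKO and 8 to 43 in the difference. Of the higher calls, 189 of 551, 239 of 684, 93 of 263 and 3 of 24 (Adap1, Tnxb and Dym) held whichever library was left out, and of the lower calls 1 of 47 (Aopep), 3 of 86 (Rreb1, Spata13 and Ptgis), 0 of 17 and 0 of 2.

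Beyond 20 kb there were 3822 regions with 3.3% of counts, and 360, 459, 183 and 10 calls. Beyond 5 kb there were 7532 regions with 6.89% of counts and 46 calls in the difference, and with the ends of protein-coding genes alone 7541 regions with 6.99% of counts and 42 calls, against 4.90% of counts in the main set. Requiring a Kdm5C region to cover 50% of a deep intragenic region left 2 of the 38, in Tmem219 and Rps6ka2.

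Same-numbered libraries showed no strong shared deviation (correlations of -0.10 to 0.06). With 2 libraries a group, this cannot exclude pairing by day, litter or batch. A replicate block gave 583, 753, 270 and 23 calls, and 0 for novelty and the interaction. Loess offsets by strength gave 402 higher and 85 lower in KO under standard conditions, 511 and 114 after novelty, and 226 and 18 in ifKO. Library totals gave 602 and 26, 737 and 45, and 263 and 13, and RLE factors 540 and 69, 670 and 105, and 259 and 18. The median region of a library had 29 to 60 counts, and the size of change that this depth can show was not estimated.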
